A study of Mus musculus with 22 samples.

Results

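The 8 genes described here are Gadd45a, Gadd45b and Gadd45g together with Trp53, Mdm2, Ccng1, Bbc3 and Sesn2, taken by symbol from the 55415 lines of the expression table. Gadd45a was chosen by its TPM in GFP-negative and GFP-positive cells, because its fall differed in size among reporter clones. The other 7 are its paralogs and genes of the p53 pathway, listed with results of these data known. For Gadd45a the GFP comparison and its variation among clones are therefore descriptions, given with no test, and for the other members so are the values within clones.

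All cells were mpkCCD, an immortalised line from mouse cortical collecting duct, kept on permeable supports in medium with dexamethasone. The WT cells were not sorted: 3 libraries came from cells labelled no dDAVP and 3 from cells given dDAVP, the desmopressin analog of vasopressin that activates the V2 receptor. The GFP reporter lines, 4 in number (C1, C11, C43, C50), were dDAVP-treated throughout and each gave 2 GFP-negative and 2 GFP-positive libraries, which makes 22 libraries in 10 groups. Several doses and durations appear in the growth protocol, which also speaks of vehicle for controls, and none is tied to a library. Each reporter line is 1 clone, the promoter in front of GFP is not named in the labels, and no label says whether replicates were separate cultures, so p-values measure the spread between these libraries only. Clone and sorting cannot be told apart from the reporter when a clone is set beside WT cells. The parental line carries SV40 large T antigen, a viral protein known to bind p53.

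The 3 GADD45 proteins are small acidic stress sensors without enzyme activity of their own. They bind the kinase MAP3K4 upstream of p38 and JNK, the replication clamp PCNA and the CDK1-cyclin B complex, and they take part in cell cycle arrest, DNA repair and demethylation. GADD45A is a classic target of the transcription factor p53, encoded by Trp53, and is also induced without p53 through ATF4, BRCA1 and FOXO factors. Among other targets, MDM2 is the ubiquitin ligase that degrades p53, cyclin G1 (Ccng1) recruits a phosphatase to MDM2, PUMA (Bbc3) is a BH3-only killer protein, and sestrin-2 (Sesn2) restrains mTORC1 and is also an ATF4 target.

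The promoters of the paralogs are shown first, because the 3 transcripts behaved differently. RefSeq windows on GRCm38.p6 were found for 8 of 8 members, and those below hold the 250 bases before the transcription start of Gadd45a (chr6:67037408-67037657, minus strand), Gadd45b (chr10:80929841-80930090, plus strand) and Gadd45g (chr13:51846425-51846674, plus strand). Capitals mark the octamer ATTTGCAT, the CCAAT box and the E-box CACGTG on either strand, and TATAAA on the strand shown.
Gadd45a: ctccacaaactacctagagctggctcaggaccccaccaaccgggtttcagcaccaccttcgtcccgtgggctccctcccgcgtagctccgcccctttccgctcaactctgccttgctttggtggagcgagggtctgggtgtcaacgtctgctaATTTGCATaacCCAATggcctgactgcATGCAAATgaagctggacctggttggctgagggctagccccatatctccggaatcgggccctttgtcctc
Gadd45b: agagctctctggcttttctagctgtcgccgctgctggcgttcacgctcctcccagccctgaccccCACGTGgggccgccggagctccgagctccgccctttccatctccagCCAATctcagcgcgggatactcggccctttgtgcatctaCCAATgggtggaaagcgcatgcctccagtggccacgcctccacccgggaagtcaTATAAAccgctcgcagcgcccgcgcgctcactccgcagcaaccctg
Gadd45g: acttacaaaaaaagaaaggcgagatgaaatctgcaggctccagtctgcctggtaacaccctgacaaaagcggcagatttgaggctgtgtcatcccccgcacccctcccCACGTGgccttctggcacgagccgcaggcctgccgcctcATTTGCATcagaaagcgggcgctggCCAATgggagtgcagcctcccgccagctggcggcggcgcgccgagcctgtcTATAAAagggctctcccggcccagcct
Gadd45a has 2 octamers, on opposite strands, with a CCAAT box between them. Of 32851 promoter windows of this length, 1.60% hold an octamer and 32 windows (0.097%) hold 2 or more. Gadd45g has 1 octamer, 1 CCAAT box, 1 E-box and a TATAAA, whereas Gadd45b has 2 CCAAT boxes, 1 E-box and a TATAAA but no octamer. CCAAT occurs in 33.9% of all windows, CACGTG in 6.02% and TATAAA in 7.59%. The p53 half-site was searched as a degenerate consensus of 10 bases (3 purines, C, 2 of A or T, G, 3 pyrimidines). It was matched in Gadd45a, Mdm2, Ccng1 and Trp53 and in 7.13% of windows. None of the 8 members has the full cAMP response element TGACGTCA in these windows, which 1.55% of windows contain. These matches describe letters and not binding.

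Libraries had 12293 to 14341 genes at 1 TPM (a transcript abundance corrected for gene length and scaled to the same total in each library) or more, and their depth is unknown because TPM keep none. Aqp2, the vasopressin-regulated water channel, rose by 5.36 on the log2 scale with dDAVP (adjusted p = 1.70e-07) and by 3.11 in GFP-positive cells (adjusted p = 4.74e-06), and the GFP transcript was 6.73 higher in the positive fraction (adjusted p = 4.85e-12, all from limma). Of 11 principal-cell markers, 9 averaged at least 1 TPM. Scnn1b and Elf5, also principal-cell genes, did not reach 1 TPM in any library. Defining markers of fibroblasts stayed at or below 0.66 TPM and those of endothelium at or below 1.13 TPM. Markers of thick ascending limb and distal tubule reached 1.12 TPM at most. Of the intercalated, proximal tubule and leukocyte lists, Atp6v1b1 (19.4 to 110 TPM), Lrp2 (0.94 to 15.9 TPM) and Cd68 (2.86 to 12.4 TPM) were the genes that reached 1 TPM on average. GFP-negative replicate 1 of C50 stood apart: 44.3% of 13243 genes differed at least 1.5-fold from its replicate, against 5.20% to 17.2% in the other 7 sorted groups, and ribosomal-protein transcripts took 8.28% of its TPM, against 3.82% to 6.09% elsewhere. In that library Mdm2, Ccng1, Bbc3 and Sesn2 were at 0.484, 0.521, 0.480 and 0.427 of the replicate's level, while Gadd45a, Gadd45b, Gadd45g and Trp53 were at 1.19, 0.990, 1.25 and 1.04. Tests and C50 changes of the first 4 genes are therefore given with and without it.

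Gadd45b was the most abundant member, at a mean of 559 TPM over the 22 libraries, above 98.1% of expressed genes. Gadd45g followed at 418 TPM and Trp53 at 192 TPM. Gadd45a averaged 97.3 TPM and Mdm2 86.4 TPM, ahead of Ccng1 at 61.5 TPM, Sesn2 at 56.3 TPM and Bbc3 at 29.7 TPM. All 8 passed the filter of a mean of 1 TPM in both comparisons, each well above it.

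**Figure D1:**
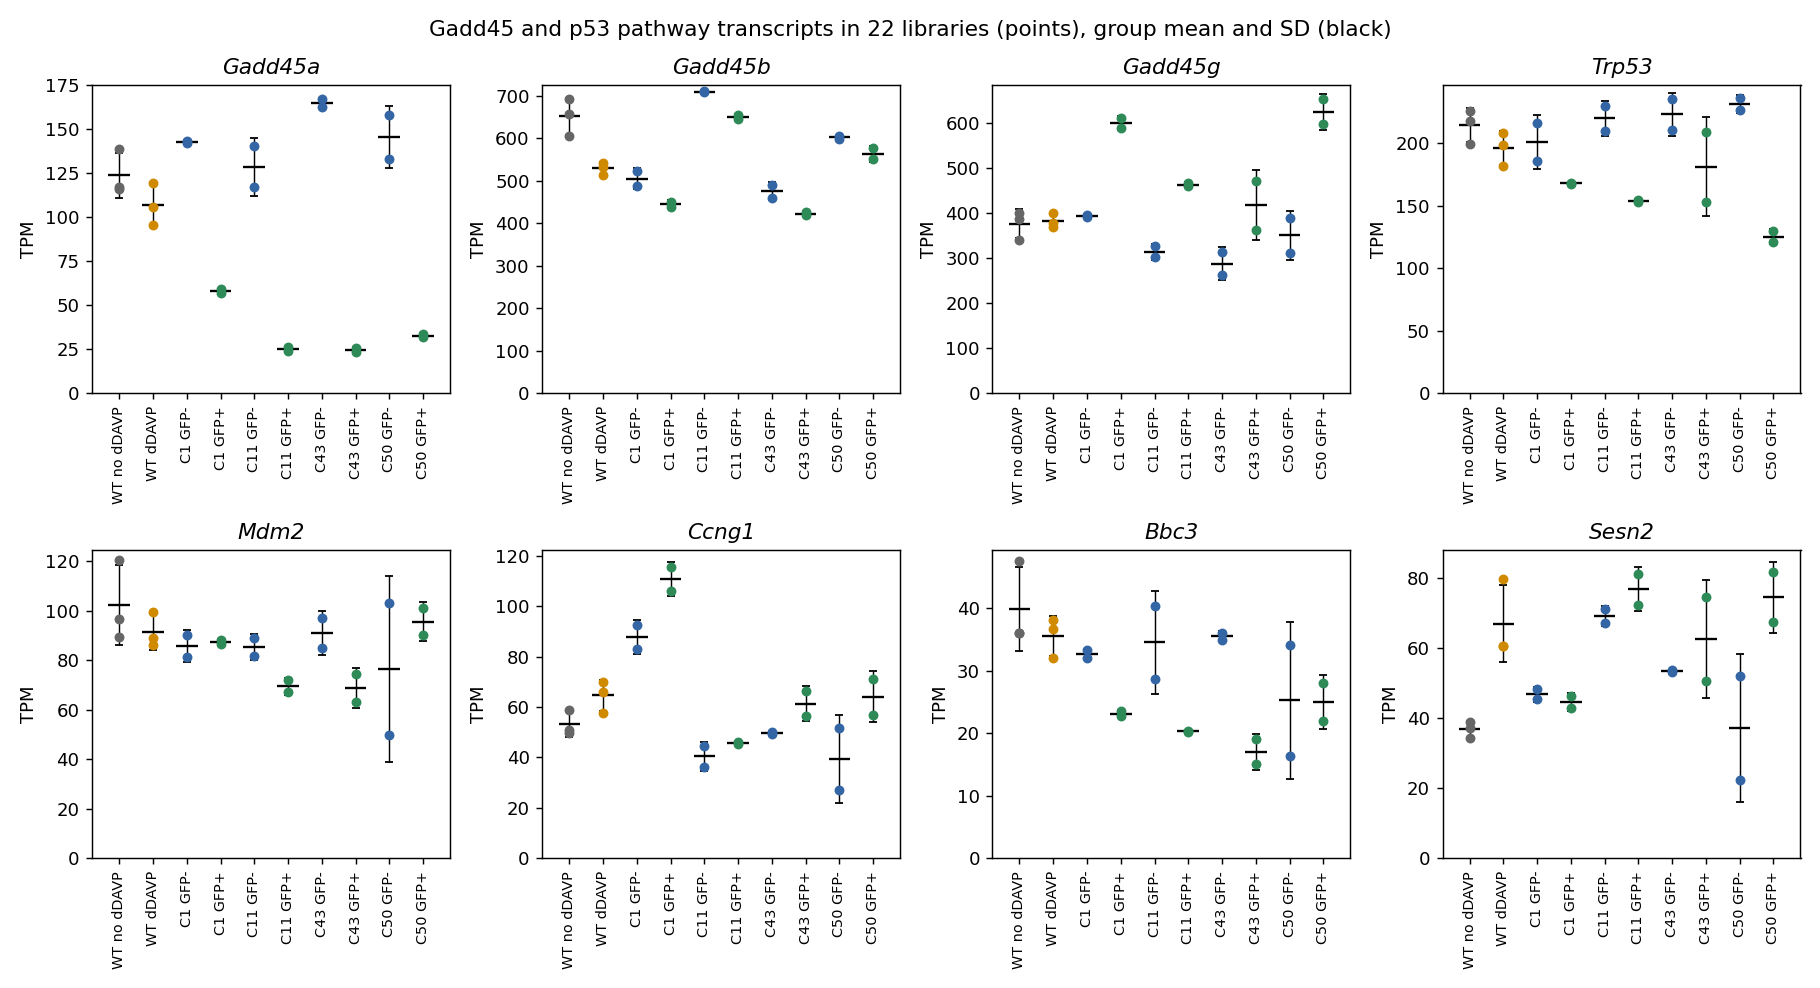
TPM of the 8 genes (1 panel each, y axes starting at 0) in 10 groups on the x axis; points are libraries, black bars the group mean and SD. Gadd45a sits at 23.7 to 59.1 TPM in every GFP-positive library and at 95.9 TPM or more in all others, while Gadd45g is higher and Trp53 lower in the GFP-positive fraction of each clone.

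Gadd45a was high in WT cells and in every GFP-negative fraction and low in every GFP-positive fraction. WT libraries gave 116, 117 and 139 TPM without dDAVP and 120, 95.9 and 106 TPM with it, which overlap (-0.21 on the log2(TPM + 1) scale, SE 0.109, limma adjusted p = 0.234). That difference ran from -0.290 to -0.0389 over 16 alternative settings of the analysis and passed in none (limma adjusted p of 0.137 or more). In GFP-negative libraries Gadd45a stood at 142 and 143 TPM in C1, 140 and 117 TPM in C11, 167 and 163 TPM in C43, and 158 and 133 TPM in C50. In GFP-positive libraries it stood at 56.9 and 59.1 TPM in C1, 26.6 and 24.1 TPM in C11, 25.8 and 23.7 TPM in C43, and 33.7 and 31.9 TPM in C50. The fractions did not overlap in any clone, and no GFP-positive library reached the lowest WT library.

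As ratios of means, the clones lay closer to each other in their GFP-negative than in their GFP-positive fractions. In TPM the spans were of similar width. Mean Gadd45a spanned 1.28-fold over the 4 GFP-negative groups (129 TPM in C11 to 165 TPM in C43) and 2.34-fold over the 4 GFP-positive groups (24.8 TPM in C43 to 58.0 TPM in C1). From GFP-negative to GFP-positive cells the mean TPM was 2.46-fold lower in C1, 5.08-fold in C11, 6.66-fold in C43 and 4.44-fold in C50. On the log2(TPM + 1) scale the falls in the same clone order were -1.28, -2.30, -2.69 and -2.11, each with an SE of 0.120 (n = 2 against 2). C1 thus had the smallest fall and kept the highest level in its GFP-positive cells. Without the C50 library that stood apart, the C50 fall was -1.99. The authors' deposited table gives ratios of means for Gadd45a of 0.41, 0.20, 0.15 and 0.23 in that order.

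In descending order the groups ran from GFP-negative C43, C50, C1 and C11 through WT without and with dDAVP to GFP-positive C1, C50, C11 and C43. Libraries of neighbouring groups overlapped for C50 and C1 GFP-negative, for C11 GFP-negative and WT without dDAVP, for the WT groups, and for C11 and C43 GFP-positive. Averaged over clones the difference was -2.10 (SE 0.147), given as a description because Gadd45a was chosen by these values. Because these are bulk libraries, fewer cells with the transcript and less transcript per cell cannot be told apart.

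Summed TPM of 8 cycling-cell markers moved with the fraction as well. The sum was 1315 to 1431 in GFP-negative and 1283 to 1301 in GFP-positive C1. It was 1063 to 1201 and 752 to 772 in C11, 967 to 1074 and 582 to 652 in C43, and 889 to 1349 and 640 to 642 in C50. C1 had the smallest Gadd45a fall and the smallest drop in this sum, but the largest were in different clones. The mean sum dropped most in C50 (1119 to 641 TPM), whose GFP-negative libraries lay far apart, while Gadd45a fell most in C43. Mcm5 and Mcm6 had the highest means of the 8 markers (307 and 435 TPM), so they weigh most in the sum. Of the 8 markers, 7 passed the test as lower over the clones and Mcm6, a replicative helicase subunit, did not (-0.02, limma adjusted p = 0.921). In WT cells the sum was 1361 to 1488 without dDAVP and 962 to 1021 with it, and there 7 of 8 passed as lower while Gadd45a did not. The part of cycling cells in the Gadd45a values was not tested.

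**Figure D2:**
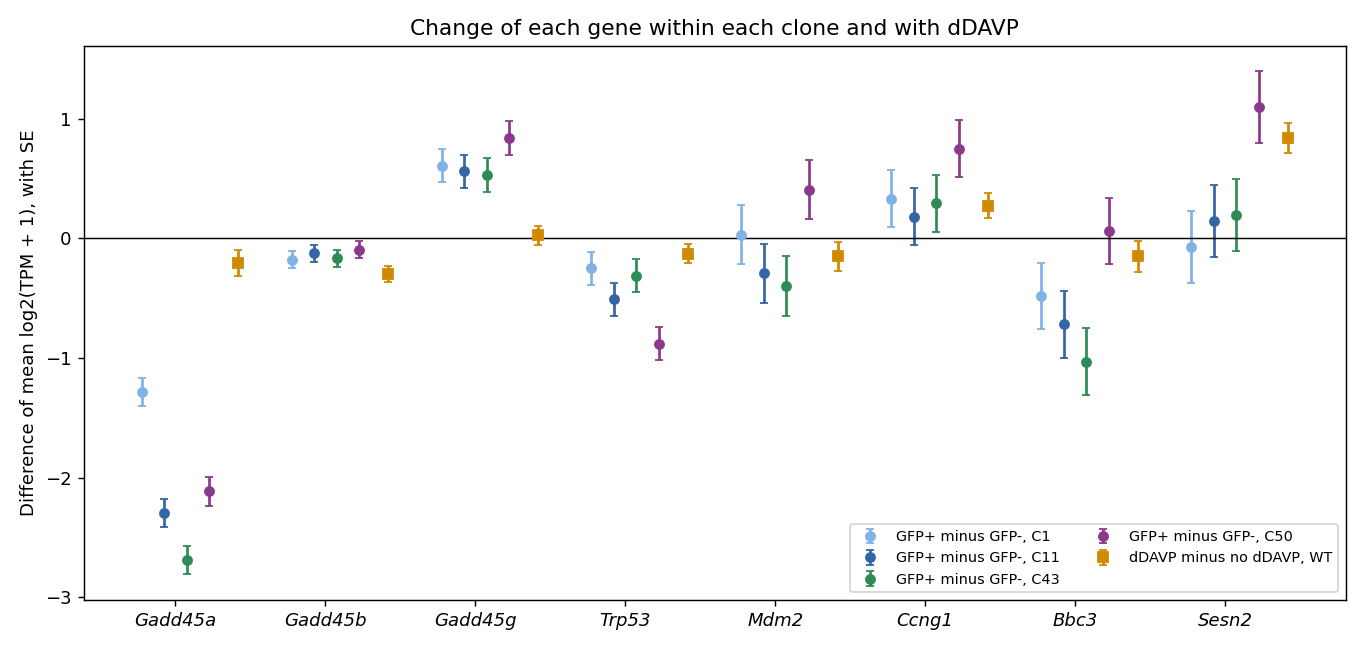
Difference of mean log2(TPM + 1) per gene (x axis) for GFP-positive minus GFP-negative cells in each clone (circles, 2 libraries per fraction) and for dDAVP minus no dDAVP in WT cells (squares, 3 libraries per group); bars are SE. Gadd45a runs from -1.28 in C1 to -2.69 in C43, while its dDAVP value is -0.21.

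Gadd45g, the paralog usually induced by cytokines and differentiation signals, went the other way. GFP-negative libraries held 396 and 391 TPM in C1, 327 and 302 TPM in C11, 262 and 314 TPM in C43, and 390 and 312 TPM in C50. GFP-positive libraries held 611 and 590 TPM in C1, 468 and 459 TPM in C11, 363 and 473 TPM in C43, and 653 and 597 TPM in C50. The fractions did not overlap in any of the 4 clones, with the positive fraction higher each time. Over the clones the rise was 0.63 on the log2(TPM + 1) scale (SE 0.0726, limma adjusted p = 1.31e-05). Within clones it was 0.61 for C1, 0.56 for C11, 0.53 for C43 and 0.84 for C50 (SE 0.140). In C43 it was 0.72 without GFP-positive replicate 1 and 0.34 without GFP-positive replicate 2. WT cells gave 341, 388 and 402 TPM without dDAVP and 377, 401 and 370 TPM with it, which overlap (0.02, SE 0.080, limma adjusted p = 0.852).

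Gadd45b, the paralog known as an NF-kB and TGF-beta target, moved little between fractions and differed more between clones. GFP-negative means were 505 ± 24.7, 709 ± 1.63, 475 ± 21.2 and 602 ± 4.32 TPM and GFP-positive means 445 ± 8.66, 650 ± 6.34, 423 ± 6.29 and 564 ± 18.9 TPM in C1, C11, C43 and C50 (SD, n = 2). In TPM as deposited the positive fraction was lower with no overlap in each clone, but the sign turned positive with median-ratio scaling in C11 (0.0267) and C43 (0.0199) and with quantile normalization in C50 (0.0656). Its fall over the clones was -0.14 (SE 0.0385, limma adjusted p = 0.00991), but with median-ratio scaling between libraries it was -0.06 (adjusted p = 0.518) and the call ended. The call also ended under quantile normalization (-0.13, adjusted p = 0.0913) and without clone C1 (0.0677), C11 (0.0588) or C43 (0.0724) with clone means as replicates (0.225) and in the libraries with more (0.136) or fewer (0.443) genes detected, with limma adjusted p-values in parentheses. In WT libraries Gadd45b stood at 606, 658 and 692 TPM without dDAVP and at 533, 513 and 541 TPM with it, with no overlap. That fall of -0.30 (SE 0.070, limma adjusted p = 0.0437) did not hold with median-ratio scaling (-0.13, adjusted p = 0.466), with every gene above 0 TPM (0.145), without the variance trend (0.0963) or in the libraries with more genes detected (0.258). It was also lost when any 1 WT library other than replicate 1 without dDAVP was left out (limma adjusted p 0.0577 to 0.134).

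Trp53 transcripts were lower in GFP-positive cells of each clone, with no overlap between fractions. GFP-negative libraries gave 216 and 185 TPM in C1, 210 and 229 TPM in C11, 235 and 210 TPM in C43, and 236 and 226 TPM in C50. GFP-positive libraries gave 168 and 168 TPM in C1, 153 and 155 TPM in C11, 153 and 209 TPM in C43, and 121 and 130 TPM in C50. C43 was the closest case, with 209 TPM in one positive library beside 210 TPM in a negative one. Over the clones the fall was -0.49 (SE 0.0908, limma adjusted p = 0.000743; 0.319 in the libraries with fewer genes detected), and within clones it was -0.25 for C1, -0.51 for C11, -0.31 for C43 and -0.88 for C50 (SE 0.137). In C1 the value ran from -0.36 to -0.14 when either GFP-negative library was left out. In C43 it was -0.0895 without GFP-positive replicate 1, -0.54 without GFP-positive replicate 2 and -0.13 with median-ratio scaling. The order of the falls differed from that of Gadd45a, with C50 and not C43 showing the lowest value. WT libraries overlapped, at 226, 218 and 199 TPM without dDAVP and 181, 199 and 208 TPM with it (-0.13, SE 0.081, limma adjusted p = 0.314). These are transcript levels, and p53 protein was not measured.

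Mdm2, the negative regulator of p53 and itself a p53 target, passed the test in neither comparison. WT libraries held 121, 89.4 and 96.9 TPM without dDAVP and 88.8, 99.6 and 86.0 TPM with it (-0.15, SE 0.122, limma adjusted p = 0.421). Leaving out 1 WT library gave values from -0.241 to -0.0270. Positive and negative fractions overlapped in C1 and C50. Over the clones the difference was -0.06 (SE 0.139, limma adjusted p = 0.768). It was -0.20 (limma adjusted p = 0.0316) without the C50 library that stood apart, where Mdm2 read 49.8 TPM against 103 TPM in the replicate, and the C50 change went from 0.41 to -0.11. Median-ratio scaling turned both differences positive (0.0197 in WT cells and 0.0165 over the clones).

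Ccng1 was higher in GFP-positive cells of all 4 clones and also set the clones apart. In C1 it stood at 83.2 and 92.7 TPM in GFP-negative and 116 and 106 TPM in GFP-positive libraries, above every library of the other clones. C11 gave 36.4 and 44.4 TPM against 46.0 and 45.4 TPM, C43 gave 49.3 and 50.2 TPM against 66.4 and 56.4 TPM, and C50 gave 27.0 (the library that stood apart) and 51.8 TPM against 56.9 and 71.2 TPM. Its C50 change was 0.75 with that library and 0.29 without it. GFP-positive means spanned 2.43-fold over the clones, against 2.34-fold for Gadd45a, but GFP-negative means already ranged from 40.4 TPM in C11 to 87.9 TPM in C1 with C50 left aside. The rise over the clones was 0.39 (SE 0.122, limma adjusted p = 0.0214) and 0.27 (limma adjusted p = 0.00335) without the C50 library that stood apart. It did not pass the test without clone C1 (0.41, limma adjusted p = 0.0770), without clone C43 (0.42, limma adjusted p = 0.0695) or with clone means as replicates (limma adjusted p = 0.0633). Nor did it pass with every gene above 0 TPM (limma adjusted p = 0.0652) or in the libraries with more (0.0524) or fewer genes detected (0.208). In WT cells the difference was 0.27 (SE 0.105, limma adjusted p = 0.130), with means of 53.2 ± 5.05 TPM without and 64.6 ± 6.20 TPM with dDAVP (SD, n = 3). It passed there under median-ratio scaling (0.44, limma adjusted p = 0.0202) and under quantile normalization (0.41, limma adjusted p = 0.0400).

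Bbc3 was lower in GFP-positive cells of C1, C11 and C43. Libraries gave 32.1 and 33.3 TPM against 22.7 and 23.6 TPM in C1, 40.4 and 28.7 TPM against 20.3 and 20.3 TPM in C11, and 35.0 and 36.1 TPM against 15.01 and 19.02 TPM in C43. In C50 the fractions overlapped, at 16.4 and 34.2 TPM against 28.1 and 21.99 TPM, where the low negative value belongs to the library that stood apart. The fall over the clones was -0.54 (SE 0.163, limma adjusted p = 0.0174) and -0.69 (limma adjusted p = 8.37e-05) without that library, and the C50 change went from 0.06 to -0.44. It did not pass without clone C1 (-0.56, limma adjusted p = 0.0720), clone C11 (-0.48, limma adjusted p = 0.104) or clone C43 (-0.38, limma adjusted p = 0.164), nor with clone means as replicates (limma adjusted p = 0.0807), with every gene above 0 TPM (0.0540) or in the libraries with fewer genes detected (-0.25, limma adjusted p = 0.696). WT groups overlapped, at 39.9 ± 6.71 and 35.6 ± 3.21 TPM (SD, n = 3, limma adjusted p = 0.453).

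Sesn2 was the member with the largest dDAVP response in WT cells. It stood at 38.9, 37.1 and 34.2 TPM without dDAVP and at 60.4, 79.6 and 60.5 TPM with it, with no overlap. The rise was 0.84 (SE 0.124, limma adjusted p = 0.0108), and 97.2% of genes tested had a lower value. Without WT no-dDAVP replicate 3 the adjusted p was 0.0507 in limma (0.79), and in the WT libraries with more genes detected it was 0.109 (0.85), so the call ended in both. Between GFP fractions, all given dDAVP, the difference was 0.34 (SE 0.178, limma adjusted p = 0.157), and 0.17 (limma adjusted p = 0.152) without the C50 library that stood apart. It passed under median-ratio scaling (0.42, limma adjusted p = 0.0303) and quantile normalization (0.41, limma adjusted p = 0.0239). Fractions overlapped in C1 and C43, while C50 read 22.2 (the library that stood apart) and 52.0 TPM against 81.5 and 67.2 TPM. The C50 change of Sesn2 was 1.10 with that library and 0.50 without it.

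Of the 8 members, 2 passed the test with dDAVP in WT cells, where 8.88% of 13494 genes did. Sesn2 was the 1 that passed as higher, as 2.37% of genes did, and Gadd45b the 1 that passed as lower, as 6.51% did. The members' median difference was -0.14 and that of all genes -0.16. Median-ratio scaling moved the median of all genes to -0.00122, so the fall of Gadd45b relative to it was -0.13. Between GFP fractions, leaving Gadd45a aside, 5 of the other 7 members passed, 2 higher and 3 lower, beside 35.3% of 13113 genes, 12.1% higher and 23.2% lower. With median-ratio scaling or quantile normalization the 5 were 3 higher and 2 lower, with Sesn2 in place of Gadd45b. Since the 7 were listed with results known, this count is not independent evidence about them. Libraries of the fractions did not overlap for 54.8% of genes in clone C1, 61.0% in clone C11, 60.4% in clone C43 and 53.5% in clone C50. They were apart in the same direction in all 4 clones for 18.9% of genes, 6.72% higher and 12.2% lower. Leaving aside Gadd45a, which was chosen by these values, this held for Gadd45g and Ccng1 (higher) and for Gadd45b and Trp53 (lower). For Gadd45b it held in TPM as deposited only, since its sign turned in some clones under other scalings. WT groups did not overlap for Sesn2 and Gadd45b, as for 35.8% of genes.

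**Figure D3:**
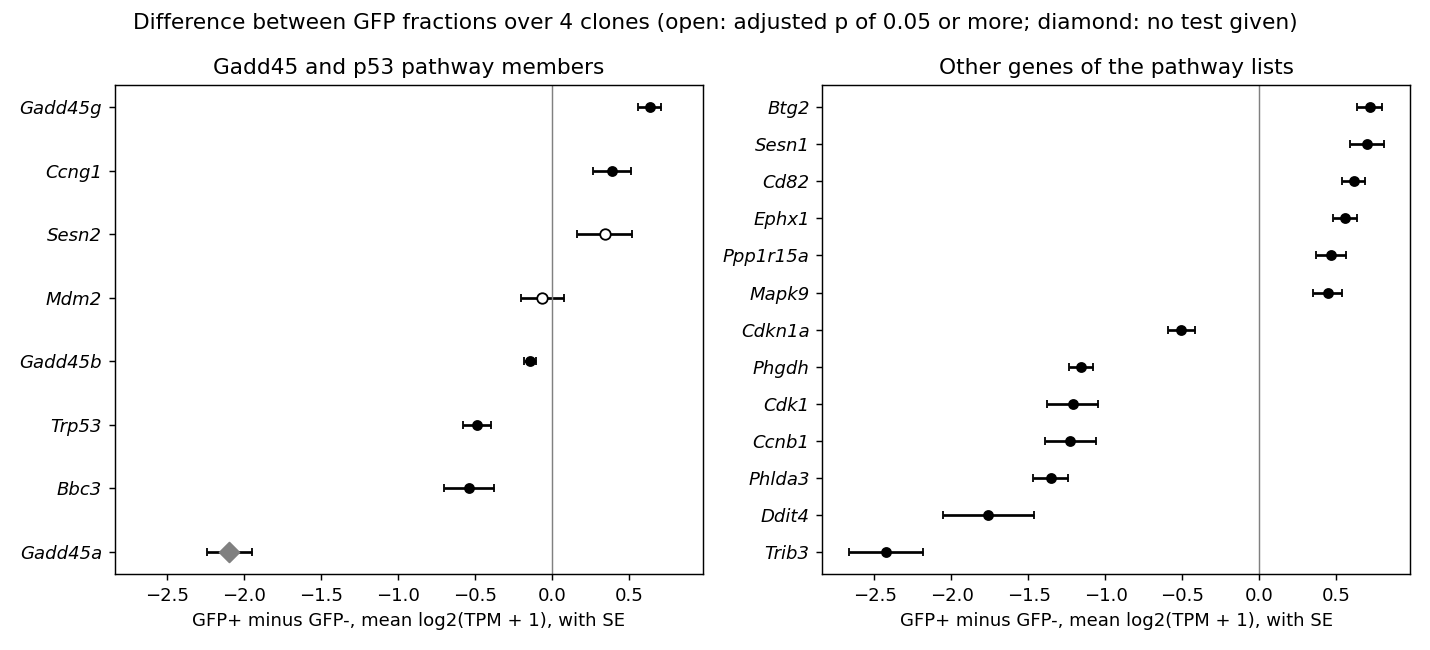
GFP-positive minus GFP-negative difference of mean log2(TPM + 1) over 4 clones (x axis, bars are SE, 16 libraries) for the 8 members (left) and 13 genes of the pathway lists (right); filled points passed an adjusted p of 0.05, open points did not, and the diamond for Gadd45a carries no test. Members run from -2.10 to 0.63, and the named list genes from -2.42 for Trib3 to 0.72 for Btg2.

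Other genes of the pathway were read from 4 lists of 88 genes, of which 83 were tested. Of all genes tested, 12.1% rose and 23.2% fell between fractions. Among 37 further p53 targets, 6 rose and 11 fell in GFP-positive cells, which is 45.9% of them against 35.3% of all genes. Cdkn1a, which encodes the CDK inhibitor p21, fell from 864 ± 125 to 629 ± 207 TPM (SD, n = 8; -0.51, limma adjusted p = 0.000444). Phlda3, an inhibitor of AKT, fell from 81.0 ± 27.6 to 34.4 ± 23.1 TPM (-1.36, adjusted p = 7.61e-07). Targets did not share a direction. Btg2, an antiproliferative cofactor of mRNA deadenylation, rose from 1712 ± 381 to 2783 ± 450 TPM (0.72, adjusted p = 1.10e-05), Sesn1 rose by 0.70 (adjusted p = 0.000223), the tetraspanin gene Cd82 by 0.61 (adjusted p = 1.86e-05) and the epoxide hydrolase gene Ephx1 by 0.56 (adjusted p = 7.09e-05). The SD of each group includes the differences between clones.

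Among 17 p53 regulators, 1 rose and 2 fell between fractions (17.6%, against 35.3% of all genes). Of 16 GADD45 partners and stress kinases, 1 rose and 8 fell (56.3%, against the same 35.3%). Cdk1, the mitotic kinase that GADD45 proteins bind, fell from 438 ± 118 to 185 ± 36.9 TPM (-1.21, limma adjusted p = 5.50e-05), and its cyclin Ccnb1 fell by 1.23 on the log2 scale (adjusted p = 5.50e-05). Both are cell cycle genes, and the summed cycling markers fell with them. Mapk9, the gene of the kinase JNK2, rose by 0.44 (adjusted p = 0.00212).

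Of 13 ATF4 pathway genes, 1 rose and 7 fell (61.5%, against 35.3% of all genes). The 5 that did not pass were Atf4 itself (-0.06, limma adjusted p = 0.431), Ddit3, Psat1, Slc7a11 and Vldlr. Trib3, a pseudokinase gene, fell from 137 ± 53.6 to 23.1 ± 5.80 TPM (-2.42, limma adjusted p = 3.58e-06), Ddit4, an inhibitor of mTORC1, from 23.3 ± 11.1 to 6.05 ± 2.60 TPM (-1.76, adjusted p = 0.000308), and Phgdh, which opens serine synthesis, from 689 ± 36.3 to 313 ± 64.8 TPM (-1.16, adjusted p = 9.16e-08). Ppp1r15a, also called Gadd34 and unrelated in sequence to the GADD45 genes, rose by 0.46 (adjusted p = 0.00197). With clone means as replicates Ppp1r15a did not pass (limma adjusted p = 0.0668), nor in the libraries with more genes detected (0.0871). In total 37 of 83 list genes passed (44.6%, against 35.3% of all genes), 9 higher and 28 lower, with a median of -0.16 against -0.06 for all genes. Median-ratio scaling gave 15 higher and 18 lower, and quantile normalization 15 and 25. In the clone libraries with fewer genes detected, 2 of the list genes passed, 1 higher and 1 lower.

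With dDAVP in WT cells 10 of 83 list genes passed (12.0%, against 8.88% of all genes), 3 higher and 7 lower (2.37% and 6.51% of all genes), with a median of -0.13 against -0.16 for all genes. Chac1, a glutathione-degrading ATF4 target, rose from 183 ± 4.02 to 264 ± 12.7 TPM (SD, n = 3; 0.52, limma adjusted p = 0.00653), and this call held without any 1 library but not in the libraries with more genes detected (adjusted p = 0.113). Gdf15, a secreted stress cytokine, rose from 937 ± 39.3 to 1178 ± 7.31 TPM (0.33, adjusted p = 0.0201), and Psat1, of serine synthesis, rose by 0.33 (adjusted p = 0.0410). Atf3, a stress-induced repressor, fell from 1778 ± 98.9 to 1335 ± 44.0 TPM (-0.41, adjusted p = 0.0134). Pidd1, which scaffolds caspase-2, fell by 0.71 on the log2 scale (adjusted p = 0.0110), Sesn1 by 0.58 (adjusted p = 0.0220), Ccnb1 by 0.61 (adjusted p = 0.0376), Gtse1 by 0.42 (adjusted p = 0.0270) and the repair gene Ddb2 by 0.41 (adjusted p = 0.0357). Cdkn1a was at 894 ± 20.2 TPM without and 760 ± 28.5 TPM with dDAVP (-0.23, limma adjusted p = 0.0523) and did not pass. It passed under quantile normalization (-0.37, limma adjusted p = 0.0288), with a filter of 5 TPM (0.0487) and with the genes-detected covariate (0.0311), and was -0.0629 with median-ratio scaling. The sestrin genes had opposite signs in WT cells, Sesn2 higher and Sesn1 lower. Of these calls, those of Ddb2, Sesn1, Gtse1, Gdf15, Ccnb1 and Psat1 were each lost in 5 of 6 fits that left out 1 WT library, Atf3 in 3 and Pidd1 in 2 (limma adjusted p up to 0.140). Median-ratio scaling gave 4 higher and 2 lower, and quantile normalization 2 higher and 7 lower. Under median-ratio scaling Atf3 was -0.24 (limma adjusted p = 0.111), Gtse1 -0.25 (0.132), Ddb2 -0.24 (0.178) and Ccnb1 -0.44 (0.151), none of which passed. Quantile normalization also ended the calls of Gtse1 (-0.24), Ddb2 (-0.26), Ccnb1 (-0.47), Gdf15 (0.21) and Psat1 (0.27).

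Clone dependence was tested for the list genes only. A difference between clones in the GFP change passed for 5 of 83 (6.02%), beside 0.869% of all genes. Cdk1 fell least in C1 and most in C50, at -0.37, -1.02, -1.51 and -1.96 in C1, C11, C43 and C50 (limma F, adjusted p = 0.00309). Pcna, the replication clamp bound by GADD45 proteins, gave 0.08, -0.26, -0.37 and -0.86 (adjusted p = 0.00956). Phlda3 gave -0.75, -1.35, -1.76 and -1.57 (adjusted p = 0.0464), with C1 the smallest in size as for Gadd45a, and Ppp1r15a gave 0.35, 0.25, 0.23 and 1.02 (adjusted p = 0.0474). The fifth, Trib3, gave -2.10, -2.88, -3.43 and -1.29 (adjusted p = 0.0496). Of 23 alternatives, 17 ended the call of Phlda3, 18 that of Ppp1r15a, 16 that of Trib3, 3 that of Pcna and 0 that of Cdk1 (limma F, adjusted p up to 0.220). The count moved when 1 library was left out, most for the C50 GFP-negative group, but such fits keep only 1 library in a group.

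**Figure D4:**
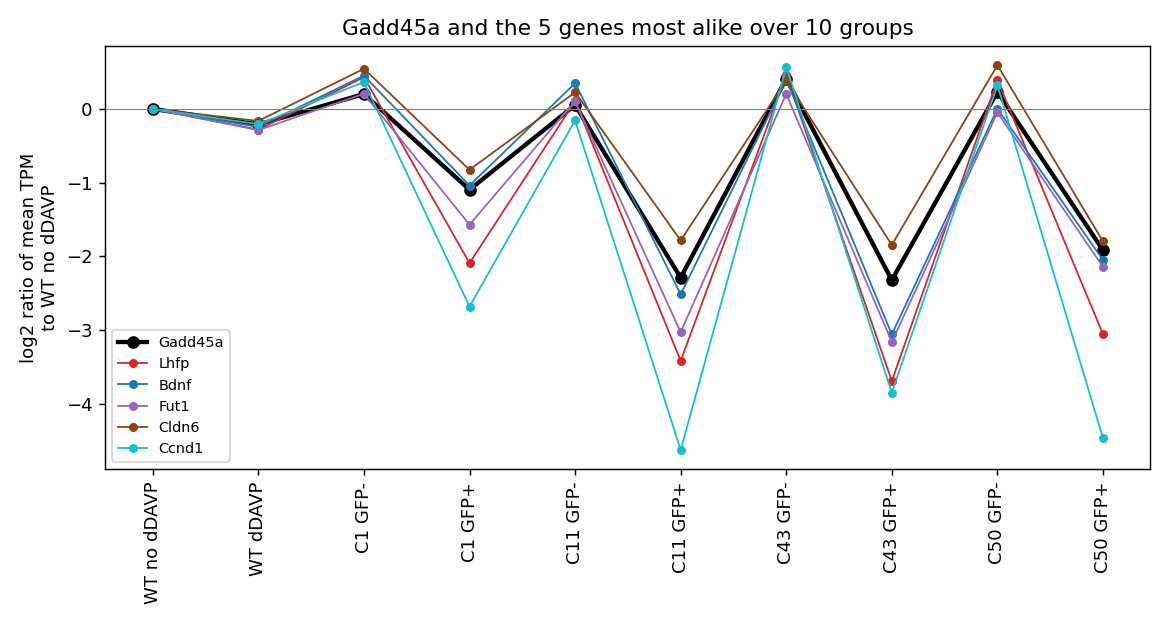
Mean TPM of Gadd45a (thick black) and the 5 genes with the most similar pattern, as log2 ratio to WT cells without dDAVP (y axis), in 10 groups (x axis); lines only join the points of a gene. All 6 genes are lower in the GFP-positive group of each clone than in its GFP-negative group, with Ccnd1 the lowest.

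Across the 10 group means of log2(TPM + 1), and among 3722 genes that varied enough to be compared, the patterns closest to Gadd45a were those of Lhfp (Pearson r 0.995), Bdnf (0.989), Fut1 (0.988), Cldn6 (0.988) and Ccnd1 (0.983). The r values are the highest picked from 3722 genes over 10 points that share clones and treatment, so they describe and do not test. Ccnd1, the gene of cyclin D1, had 20.6 TPM in GFP-negative and 2.49 TPM in GFP-positive C1, and 14.3 and 0.645 TPM in C11. Bdnf, a neurotrophin gene, had 18.6 and 6.60 TPM in C1 and 17.9 and 1.63 TPM in C43. Cldn6, of a tight junction claudin, had 658 and 254 TPM in C1 and 589 and 125 TPM in C43. The nearest patterns to the other members were Apbb1 (0.957) and Vps37d (0.955) for Gadd45b, Ccser2 (0.940) and Arhgef3 (0.890) for Gadd45g, and Mis18a (0.969) and Pxdc1 (0.943) for Trp53. For Mdm2 they were Afg3l1 (0.910) and Slc7a6 (0.894), for Ccng1 Sh3gl2 (0.951) and Kcnk5 (0.947), for Bbc3 Kctd3 (0.959) and Fpgs (0.959), and for Sesn2 Rasgef1b (0.949) and Fads2 (0.907). Mdm2, Gadd45b and Trp53 themselves ranged over 0.558, 0.744 and 0.879 in log2 group means, less than was asked of the compared genes. Over the 22 libraries each r was lower, down to 0.777 for Slc7a6. Gadd45a is also line 8 of 12 leading lines that stand out of identifier order in the authors' table, next to cell cycle genes such as Cdk1, Ccna2, Mki67 and Ccnd1.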

How the data were processed

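RNA-seq was done on 22 mpkCCD libraries made with SMART-Seq HT and Nextera XT, per the labels' protocols. STAR and RSEM are named in the submitters' processing notes, while the build and annotation are not given in the sources used here. The authors deposited TPM per gene and library, and also group means and ratios of means, whose ratio values are quoted only as the authors' deposited ratios. Lines that shared a symbol (980 lines, 79 symbols) were summed. No pair of libraries was identical (0 pairs).

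Tests used limma 3.58.1 in R 4.3.3 on log2(TPM + 1), a pseudocount of 1 that understates changes of low genes, for genes averaging 1 TPM or more. Moderated statistics used a mean-variance trend, two-sided tests and Benjamini-Hochberg adjustment over all genes, and an adjusted p under 0.05 passed. WT libraries (6) were compared by dDAVP and clone libraries (16) by GFP fraction with clone as covariate. A second model, with 1 mean for each fraction of each clone, gave changes within clones and the interaction F over 3 terms. Scripts were tested on simulated data. Depth is unknown, so precision rests on replicate spread.

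All members were named. Of the lists, the 6 largest rises and falls that passed at a mean of 5 TPM or more were named, with Cdkn1a added; of the interaction, the 4 smallest p-values, to which the fifth (Trib3) was added after its value was seen. Genes most alike needed an average of 5 TPM, a range of at least 1 in log2 group means and no provisional symbol. The members and lists were chosen with earlier results of these data known. Alternatives were another pseudocount (0.1), filters, scalings, moderation without trend, lines per identifier, a genes-detected covariate, the replicate block, clone means, and leaving out libraries or clones. The comparison of libraries by number of genes detected was chosen after seeing the data.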

Additional observations from a re-analysis of the deposited data

Results flagged for a closer look

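A test of the difference between clones picked out 5 pathway genes whose GFP change was not the same in C1, C11, C43 and C50 (limma interaction F, 16 libraries, adjusted over all genes tested). Cdk1 had an adjusted p of 0.00309 and kept the call in 23 of 23 alternatives (adjusted p 0.000597 to 0.0217). Pcna had 0.00956 and lost the call in 3 of 23 (up to 0.0582). Phlda3 had 0.0464 and lost it in 17 of 23 (up to 0.208), Ppp1r15a had 0.0474 and lost it in 18 of 23 (up to 0.220), and Trib3 had 0.0496 and lost it in 16 of 23 (up to 0.190). Of the 23 alternatives, 16 left out 1 library and so kept 1 library in a group, whose spread was then taken from the other groups. Groups of 2 or 3 libraries are too small to test for an outlying library.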

How the results depend on the processing

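The GFP difference of Gadd45g (0.56 to 0.71) kept its direction and side of the threshold in 32 of 32 alternatives, and that of Gadd45a, given with no test, ranged from -2.37 to -1.90. Counts moved with several settings. With dDAVP in WT cells, for all genes (1198), members (2) and pathway genes (10) in turn they were 442, 1 and 2 with every gene above 0 TPM, 691, 1 and 5 without the trend, and 101, 0 and 0 in the 4 WT libraries with more genes detected, where 2 members and 19 pathway genes had an unadjusted p under 0.05 in limma. The genes-detected covariate gave 2694 genes and 23 pathway genes, and median-ratio scaling 6 pathway genes. Leaving out 1 library gave 314 to 2038, 0 to 2 and 1 to 14. No label says whether same-numbered libraries were paired. Their deviations correlated at -0.212 to -0.0306 (WT) and at 0.00784 to 0.211 (clones, 1 value each), which cannot settle it. With the replicate block in WT cells 122 genes, 0 members and 0 pathway genes passed (unadjusted p under 0.05 for 2 members and 26 pathway genes in limma). The block left Sesn2 at an adjusted p of 0.0653 and Chac1 at 0.0766 (limma).

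Between GFP fractions 4626 genes, 6 members and 37 pathway genes became 2406, 3 and 24 with clone means as replicates, and 250, 2 and 2 in the libraries with fewer genes detected. Members numbered 3 without clone C1 and 3 without clone C43. Each of these member counts holds Gadd45a, which is given with no test and counts as no result, so the tested members are 1 fewer. Interaction calls (5) were 2 with every gene above 0 TPM, 1 without the trend, and 1 to 40 without 1 library. Some signs turned. Gadd45g in WT cells was -0.0485 with quantile normalization and -0.0455 to 0.0714 without 1 library. Within clones the sign of Gadd45b turned in C11 (0.0267) and C43 (0.0199) with median-ratio scaling and in C50 (0.0656) with quantile normalization. In C50 without GFP-negative replicate 1 Bbc3 went from 0.06 to -0.44, Mdm2 from 0.41 to -0.11, Ccng1 from 0.75 to 0.29 and Sesn2 from 1.10 to 0.50, and in C43 Sesn2 went from 0.20 to -0.0749 without GFP-positive replicate 2. Median-ratio scaling gave 0.0425 for Trp53, 0.0197 for Mdm2 and 0.0164 for Bbc3 in WT cells, and quantile normalization 0.0336 for Bbc3. Mdm2 over the clones was 0.0165 and 0.0191 with median-ratio scaling and quantile normalization, 0.0129 without clone C11, 0.0486 without clone C43 and 0.0854 in libraries with fewer genes detected. The cause of these shifts was not tested. Among all genes called, the share higher moved from 26.7% to 63.7% (WT) and from 34.2% to 51.1% (clones) with median-ratio scaling.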
